A study of Mus musculus with 12 samples.

Results

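A set of 7 amino acid transporter genes, known as targets of the amino acid stress response, was described in the spinal cord of young mice carrying a mutant glycyl-tRNA synthetase. They are Slc7a1, Slc7a3, Slc7a5, Slc3a2, Slc38a2, Slc1a4 and Slc1a5, chosen by name, and all 7 were found among the 38924 genes of the files. RNA was measured by poly(A) RNA sequencing of whole spinal cord from 12 mice aged 1 week, with 1 library per mouse, on the mixed strain background B6J;CAST. There were 3 mice of each labelled sex in both genotypes, 6 wt and 6 P278KY in all. The P278KY mice are heterozygous for a mutant allele of Gars, which encodes glycyl-tRNA synthetase, and the title of the series places this age before disease onset. The labels do not say which mice were littermates. Each library is called by its labelled sex, genotype and mouse number.

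Cells that run short of an amino acid, or of charged tRNA, can activate the kinase GCN2, which phosphorylates the initiation factor eIF2 and so raises translation of the transcription factor ATF4. ATF4 activates genes for amino acid synthesis, tRNA charging and amino acid import. The 7 transporters serve 3 kinds of import. Slc7a1 and Slc7a3 encode carriers of arginine, lysine and other cationic amino acids. Slc7a5 encodes the light chain, and Slc3a2 the CD98 heavy chain, of a paired exchanger of large neutral amino acids such as leucine. Slc38a2 encodes a sodium-coupled carrier of small neutral amino acids, and Slc1a4 and Slc1a5 encode sodium-dependent exchangers of alanine, serine, cysteine and, for Slc1a5, glutamine.

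The depth was 27713981 to 43219891 expected counts per library. Gars itself stood at 117 to 135 CPM (counts relative to the scaled library total) in the wt libraries and at 121 to 140 CPM in the P278KY libraries, with a log2 fold change of 0.07 ± 0.05 (SE) and overlapping groups. In libraries labelled male Gars was at 117 to 121 CPM in wt and 135 to 140 CPM in P278KY (0.20 ± 0.05, edgeR adjusted p = 0.891), and in libraries labelled female the fold change was -0.05 ± 0.05. The difference between the labelled sexes was -0.26 ± 0.07 (edgeR adjusted p = 0.225), and DESeq2 called both it and the value in libraries labelled male. A gene total does not show which allele was read, so it does not check the genotype labels. The sex marks of the library labelled female wt 14 (Xist 0.533 CPM, Ddx3y 45.1 CPM) and of the library labelled male wt 19 (Xist 860 CPM, Ddx3y 0.0233 CPM) went against their labels. Marker sums for cord cells overlapped between genotypes: 5121 to 6491 CPM in wt against 5008 to 5934 CPM in P278KY for 10 neuron genes, and 5809 to 7223 CPM against 6119 to 7451 CPM for 8 astrocyte genes. Of 7 motor neuron genes 6 were lower in P278KY (median log2 fold change -0.29; sums of 127 to 305 CPM in wt and 126 to 198 CPM in P278KY), and 7 of 7 microglia genes were higher (median 0.08; 115 to 178 and 130 to 205 CPM). None of these genes was called by edgeR. The summed level of 10 skeletal muscle genes, all 10 of them higher in P278KY and none at 0 in every library, ran from 25.8 to 850 CPM in wt (median 44.6) and from 74.1 to 2168 CPM in P278KY (median 490). For 8 genes of meninges and fibroblasts, 7 of them higher, the sums ran from 974 to 4477 CPM in wt (median 1410) and from 1522 to 2779 CPM in P278KY (median 2567). The library labelled female wt 14 had the 4477 CPM, and the next wt library 1848 CPM. Of 9 Schwann cell genes 7 were lower in P278KY, with sums of 835 to 3392 CPM in wt and 555 to 2818 CPM in P278KY, and all 8 tested genes of dorsal root ganglion neurons were lower, with medians of the sums of 40.5 CPM in wt and 35.4 CPM in P278KY. The library labelled female wt 14 stood at 349 CPM, the other 5 wt libraries at 35.5 to 45.7 CPM and the P278KY libraries at 32.7 to 38.3 CPM. No gene of these lists was at 0 in every library, and the part of meninges, Schwann cells and ganglia in the results was not tested.

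ATF4 binds a short composite element whose core is written here as TGATGNAA, or TTNCATCA on the other strand. RefSeq promoter windows of 300 bases (250 before and 50 after the start, GRCm38.p6) were matched for 4 of the 7 genes: Slc1a4, Slc3a2, Slc38a2 and Slc7a1. Among them the core was found in Slc1a4 alone, on the strand that reads TTGCATCA, from 4 bases before the start to 4 after it. It occurred in 3.97% of 32851 mouse windows, and in at least 1 window of 11 of 29 matched genes of a list of ATF4 and its known targets. The exact letters TGATGCAA or TTGCATCA occurred in 0.89% of windows. The Slc1a4 promoter is shown from 100 bases before the start to 30 after it, followed by 30-base stretches around the same letters in Slc1a4 and in 2 ATF4 targets of that list, so that the letters can be compared. All are printed along the strand of the gene, with the match in capitals.
Slc1a4 promoter, chr11:20332684-20332813, minus strand: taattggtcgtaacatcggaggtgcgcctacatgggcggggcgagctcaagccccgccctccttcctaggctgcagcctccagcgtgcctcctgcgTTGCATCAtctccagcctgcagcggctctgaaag
Slc1a4 site, chr11:20332699-20332728, minus strand: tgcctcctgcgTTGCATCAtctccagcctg
Chac1 site, chr2:119351038-119351067, plus strand: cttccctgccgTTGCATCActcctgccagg
Fgf21 site, chr7:45615611-45615640, minus strand: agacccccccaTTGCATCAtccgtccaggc
A match is a match of letters only. For the other 3 matched genes, no match says only that these letters are not in their windows.

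In wt cord the mean levels of the 7 transporters ran from 8.75 to 97.0 TPM, a unit that corrects for transcript length and library total. The most abundant were the paired subunits Slc3a2 (97.0 ± 4.17 TPM, SD, n = 6) and Slc7a5 (90.0 ± 5.16 TPM), followed by Slc38a2 (73.5 ± 7.95 TPM), Slc1a4 (70.6 ± 4.40 TPM) and Slc7a1 (40.3 ± 2.48 TPM). Slc7a3 (9.72 ± 1.24 TPM) and Slc1a5 (8.75 ± 2.14 TPM) were the least abundant. Slc3a2 lay at the 91.9th percentile of the 17995 genes tested, and Slc1a5 at the 41.3rd. Slc7a5 was above Slc38a2, Slc1a4 above Slc7a1, and Slc7a1 above Slc7a3 in 12 of 12 libraries. The other neighbours in the order changed places: Slc3a2 was above Slc7a5 in 8 of 12 libraries, Slc38a2 above Slc1a4 in 6, and Slc7a3 above Slc1a5 in 9. The 7 genes together held 390 ± 9.75 TPM in wt and 400 ± 26.3 TPM in P278KY.

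**Figure D1:**
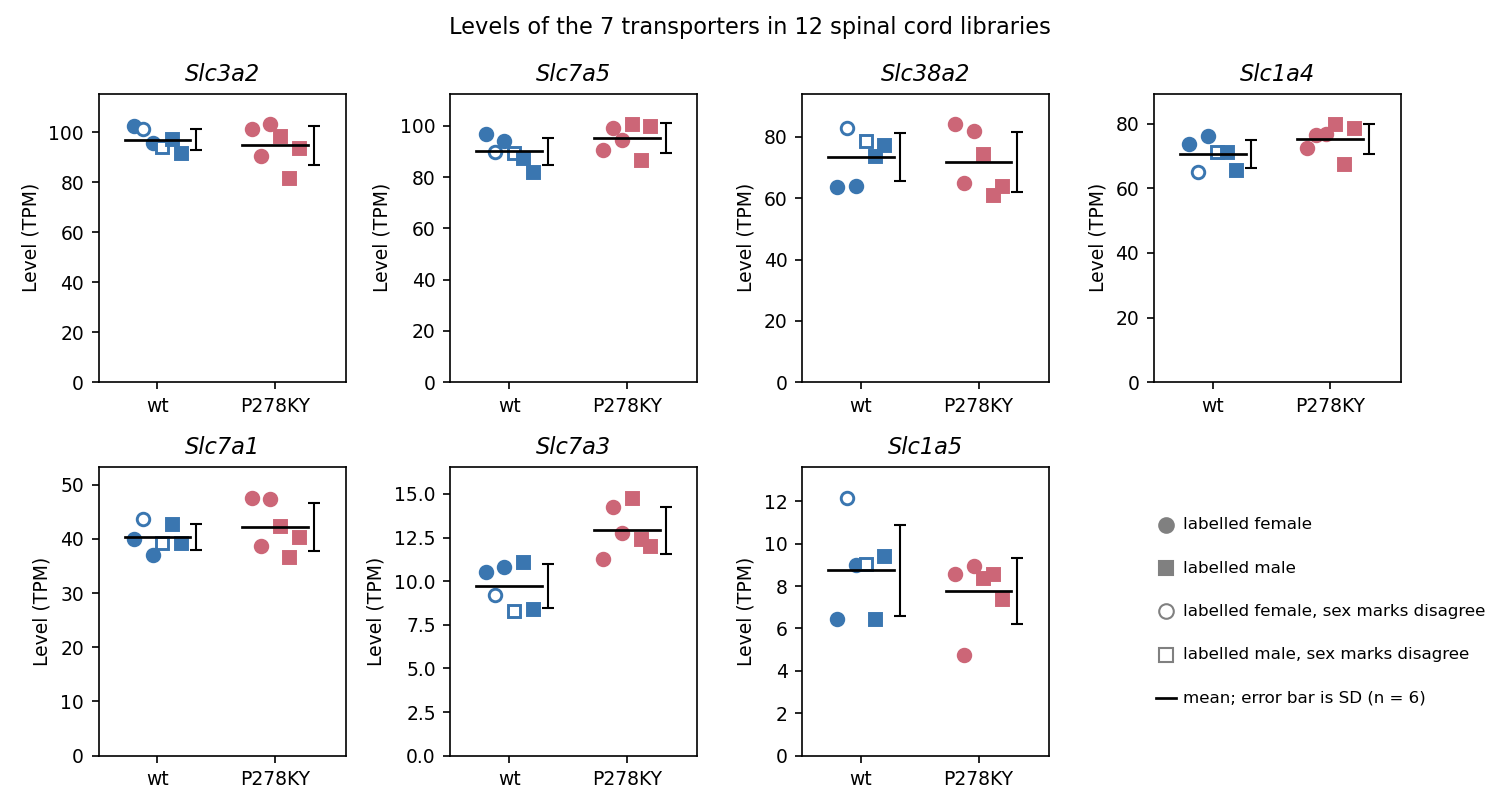
RNA level (TPM, linear axis from 0) of each transporter in the 12 libraries, wt in blue and P278KY in red. Circles are libraries labelled female, squares are libraries labelled male, open symbols are the 2 libraries whose sex marks go against their label, bars are means and error bars are SD (n = 6); Slc7a3 is the gene whose P278KY libraries, 11.3 TPM or higher, all lie above its wt libraries, 11.1 TPM or lower.

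The largest fitted difference between genotypes among the 7 genes was that of Slc7a3, the cationic amino acid carrier best known from brain. In libraries labelled female, Slc7a3 stood at 10.5, 10.8 and 9.21 TPM in wt mice 1, 2 and 14. It stood at 14.3, 12.7 and 11.3 TPM in P278KY mice 4, 7 and 10. In libraries labelled male, Slc7a3 stood at 11.1, 8.42 and 8.27 TPM in wt mice 6, 9 and 19. It stood at 12.4, 12.03 and 14.8 TPM in P278KY mice 3, 5 and 13. Every P278KY library was therefore above every wt library, although the nearest pair, female P278KY 10 and male wt 6, differed by little. The mean was 9.72 ± 1.24 TPM in wt and 12.9 ± 1.34 TPM in P278KY (SD, n = 6 each). In CPM the means were 12.5 ± 1.27 and 16.9 ± 1.44.

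The fitted genotype difference of Slc7a3 was 0.43 ± 0.08 on the log2 scale (SE, 95% interval 0.26 to 0.61), a fold of 1.35. It was ninth in the order of p over all genes, and it did not pass the edgeR test after adjustment over all genes (unadjusted p = 0.000156, adjusted p = 0.312). DESeq2 on the same design called it, with a log2 fold change of 0.44 and an adjusted p of 0.00164. The count of members called was thus 0 of 7 by edgeR, where 0.00556% of all genes were called, and 1 of 7 by DESeq2, where 0.183% were. By limma-voom it was 0 of 7. The 6 P278KY libraries stayed above every wt library with 3 other scalings (DESeq2-type size factors, library totals and TPM), and 0.1% of the genes tested separated in that direction. In bulk tissue, a change in the number of cells that hold an RNA and a change in the RNA per cell cannot be told apart.

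Slc7a3 was higher in both sexes as labelled. The log2 fold change was 0.37 ± 0.12 in libraries labelled female and 0.50 ± 0.12 in libraries labelled male, and the groups did not overlap within either. The difference between the 2 values was -0.13 ± 0.16 (edgeR interaction, adjusted p = 0.825). With both sex-discordant wt libraries left out, the fold change over all libraries was 0.37 ± 0.09. With the mean log2 level of the skeletal muscle genes as a further term it was 0.50 ± 0.12, and leaving out any 1 library gave 0.39 to 0.48. The gene is on the X chromosome (X:101079210-101086020, minus strand, GENCODE M21 on GRCm38). The build of the deposited values is not given in the sources used here. Its difference between labelled sexes was 0.00 ± 0.08 log2, with both sex-discordant libraries kept under their labels.

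Slc7a1, the more widely expressed cationic carrier, differed less. It stood at 37.1 to 43.7 TPM in wt (median 39.6) and at 36.7 to 47.6 TPM in P278KY (median 41.4), so the groups overlapped. In CPM, 4 of 6 P278KY libraries lay above every wt library, and the mean was 138 ± 6.87 in wt and 153 ± 11.9 in P278KY. The fitted log2 fold change was 0.14 ± 0.06 (95% interval 0.02 to 0.26; edgeR unadjusted p = 0.0275, adjusted p = 1.00). On log2(TPM + 1) it was 0.06 ± 0.07. The highest levels, 47.4 and 47.6 TPM, were those of female P278KY 7 and 10, and the fold change was 0.22 ± 0.08 in libraries labelled female and 0.06 ± 0.08 in libraries labelled male (edgeR interaction, adjusted p = 0.640).

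The balance of the 2 cationic carriers was compared within libraries. The ratio of Slc7a3 to Slc7a1 in TPM had a geometric mean of 0.240 in wt (range 0.211 to 0.292) and of 0.306 in P278KY (range 0.237 to 0.368). In 4 of 6 P278KY libraries it was above every wt library, and in female P278KY 7 and 10 it was within the wt range. The log2 ratios differed by 0.35 (exact two-sided permutation test, p = 0.0238; adjusted over the 3 ratios computed, p = 0.0714). Without both sex-discordant wt libraries the difference was 0.26 (exact permutation p = 0.100).

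**Figure D2:**
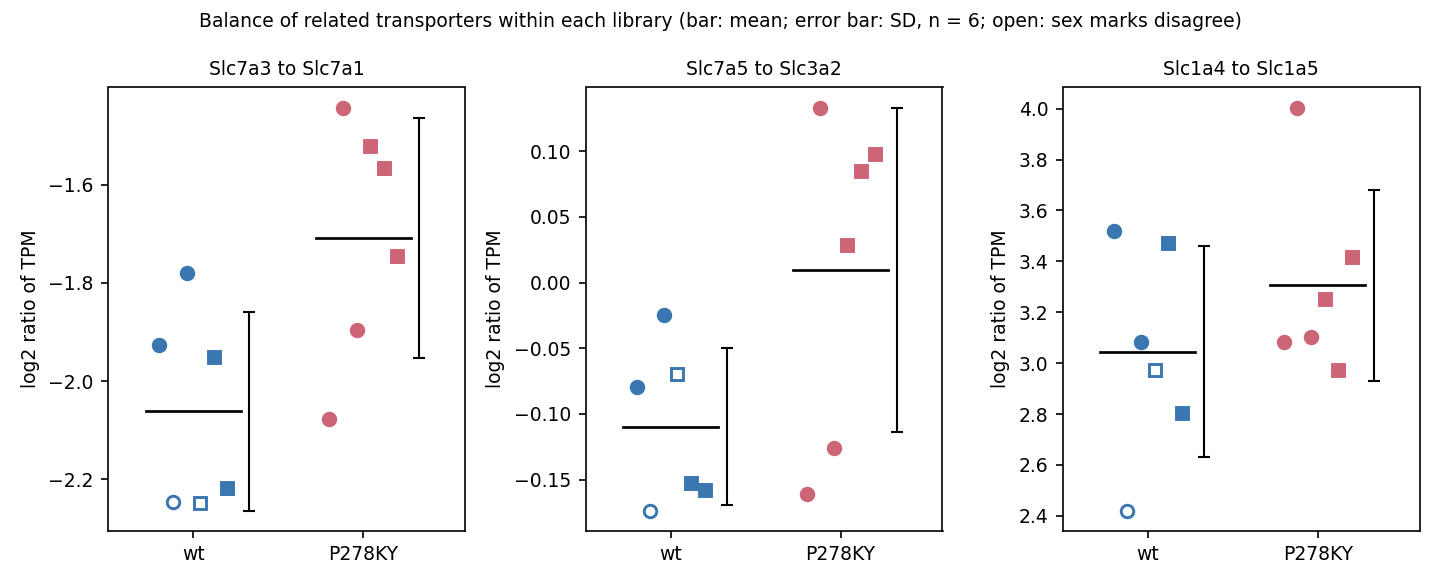
Log2 ratio of TPM within each of the 12 libraries for 3 pairs of related transporters, wt in blue and P278KY in red, with mean bars and SD error bars (n = 6); circles are labelled female, squares labelled male, open symbols the libraries whose sex marks disagree, and each vertical axis has its own range. For Slc7a3 to Slc7a1, 4 of 6 P278KY libraries lie above every wt library.

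Slc7a5 and Slc3a2, the subunits of 1 exchanger, had fitted differences of 0.12 and 0.01. Slc7a5 stood at 82.1 to 97.0 TPM in wt (median 89.6) and at 86.6 to 100.5 TPM in P278KY (median 96.9), and 3 of the 6 P278KY libraries lay above the wt range. Its log2 fold change was 0.12 ± 0.05 (95% interval 0.01 to 0.23; edgeR unadjusted p = 0.0301, adjusted p = 1.00). It was 0.10 ± 0.07 with the skeletal muscle term and 0.08 ± 0.05 on log2(TPM + 1). Slc3a2 stood at 91.6 to 102 TPM in wt (median 96.4) and at 81.7 to 103 TPM in P278KY (median 96.0). Its log2 fold change was 0.01 ± 0.05, with a 95% interval of -0.10 to 0.11, and P278KY libraries lay both above and below the wt range.

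The ratio of light to heavy chain had a geometric mean of 0.927 in wt (range 0.887 to 0.983) and of 1.01 in P278KY (range 0.894 to 1.097). The ratio was above every wt library in female P278KY 4 and in the 3 male P278KY libraries, but within the wt range in female P278KY 7 and 10. The difference of 0.12 on the log2 scale did not pass (exact two-sided permutation test, p = 0.0649; adjusted over the 3 ratios, p = 0.0973). It had an exact permutation p of 0.0346 without female P278KY 7 and of 0.0195 without female P278KY 10, the libraries within the wt range. The other 10 omissions of 1 library gave exact permutation p of 0.0519 to 0.121, and omission of both sex-discordant libraries gave 0.133. An annotated gene, Gm20388, overlaps Slc7a5 (8:121881150-121907694, minus strand) over 26545 bases on the opposite strand, and held 18260 counts over the 12 libraries against 68852 for Slc7a5. The strand setting of the counting is not given in the sources used here, so reads of the 2 genes may not be fully separated.

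Slc3a2 also pairs with other light chains. Slc7a10, whose product exchanges glycine, serine and other small neutral amino acids, was the most abundant of 5 such genes on the list of other transporters. It stood at 125 ± 10.3 TPM in wt and at 107 ± 7.13 TPM in P278KY (log2 fold change on counts -0.14 ± 0.07, edgeR adjusted p = 1.00). Slc7a6 stood at 16.2 ± 0.58 TPM in wt and 15.7 ± 0.52 TPM in P278KY, Slc7a8 at 9.90 ± 0.68 and 9.43 ± 0.60 TPM, Slc7a11 at 9.79 ± 1.91 and 11.01 ± 3.79 TPM, and Slc7a7 at 3.20 ± 2.09 and 2.38 ± 0.45 TPM. None of the 5 passed the edgeR test by genotype.

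Slc38a2, the system A carrier whose messenger is known to rise when amino acids are withdrawn from cells, differed between genotypes by less than the spread between libraries. It stood at 63.7 to 83.0 TPM in wt (median 75.6) and at 61.0 to 84.1 TPM in P278KY (median 69.7). The groups overlapped over nearly their whole ranges, and mean CPM was 189 ± 24.2 in wt and 189 ± 23.3 in P278KY. The log2 fold change was 0.00 ± 0.10, and its 95% interval of -0.21 to 0.22 holds changes of that size in either direction. It was 0.17 in libraries labelled female and -0.17 in libraries labelled male, and the difference between these, 0.34, was not called by edgeR (interaction adjusted p = 0.535). Slc38a2 has 1 transcript in the files (15:96687392-96699730, minus strand), so its TPM does not depend on how reads were shared among transcripts.

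Slc1a4, the exchanger of alanine, serine, cysteine and threonine whose promoter window holds the 8 letters shown above, stood at 65.1 to 76.3 TPM in wt (median 71.3). In P278KY it stood at 67.4 to 79.8 TPM (median 76.6), and 4 of 6 P278KY libraries were above every wt library in TPM, but 2 of 6 in CPM. Mean CPM was 153 ± 11.7 in wt and 167 ± 9.33 in P278KY. The log2 fold change was 0.13 ± 0.06 (95% interval 0.01 to 0.25; edgeR unadjusted p = 0.0404, adjusted p = 1.00). It was 0.10 in libraries labelled female and 0.16 in libraries labelled male. Fgf21, which carries the same 8 letters in its promoter, was listed at 0 in 5 of 6 wt libraries and stood at 0.473 to 1.51 CPM in the P278KY libraries. Chac1, which breaks down glutathione, had a mean of 5.04 ± 0.38 CPM in wt and 7.24 ± 0.86 CPM in P278KY. These 2 were picked with their values known. The same letters stood in the windows of Atf3, Nupr1, Vldlr and Herpud1, with log2 fold changes of 0.38 ± 0.28, 0.44 ± 0.36, 0.14 ± 0.06 and 0.08 ± 0.06, none called by edgeR or DESeq2. Windows of Pycr1 and Jdp2 held them on the other strand, as TGATGCAA, with log2 fold changes of 0.29 ± 0.17 and 0.15 ± 0.07. Neither gene was called by edgeR or DESeq2. The windows of Atf4, Aldh18a1, Ddit3 and Mthfd2, which DESeq2 called, held no match of the core.

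Slc1a5, the glutamine exchanger, was the most variable and the least abundant of the 7 genes. It stood at 6.44 to 12.2 TPM in wt (median 9.04) and at 4.76 to 8.93 TPM in P278KY (median 8.47), from 176 to 454 expected counts per library. Mean TPM was 8.75 ± 2.14 in wt and 7.77 ± 1.56 in P278KY, whereas mean CPM was 9.36 ± 2.69 in wt and 9.67 ± 1.85 in P278KY, so the 2 scales differed in direction. TPM, unlike CPM, corrects for transcript length. The mean length for Slc1a5 was 2036 ± 140 bases in wt and 2304 ± 114 bases in P278KY. The log2 fold change on counts was 0.04 ± 0.19 with a 95% interval of -0.38 to 0.47, and on log2(TPM + 1) it was -0.15 ± 0.17. Without both sex-discordant libraries the value on counts was 0.28 ± 0.17, and with the muscle term it was -0.10 ± 0.27. The highest library was the library labelled female wt 14 (13.7 CPM), which also had the highest sum of meninges and fibroblast genes (4477 CPM). The lowest 3, female P278KY 4, female wt 1 and male wt 6 (6.20, 6.31 and 6.90 CPM), had sums of 1522, 974 and 1461 CPM for those genes. Male wt 9 and female wt 2 had sums as low, 1318 and 1360 CPM, with Slc1a5 at 9.74 and 8.89 CPM. The part of such cells in the level of Slc1a5 was not tested. The ratio of Slc1a4 to Slc1a5 in TPM was 8.25 in wt and 9.89 in P278KY (geometric means). The log2 difference of 0.26 did not pass (exact two-sided permutation test, p = 0.290, and 0.290 adjusted over the 3 ratios). On expected counts, which are not corrected for length, that difference was 0.06 (exact permutation p = 0.797).

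**Figure D3:**
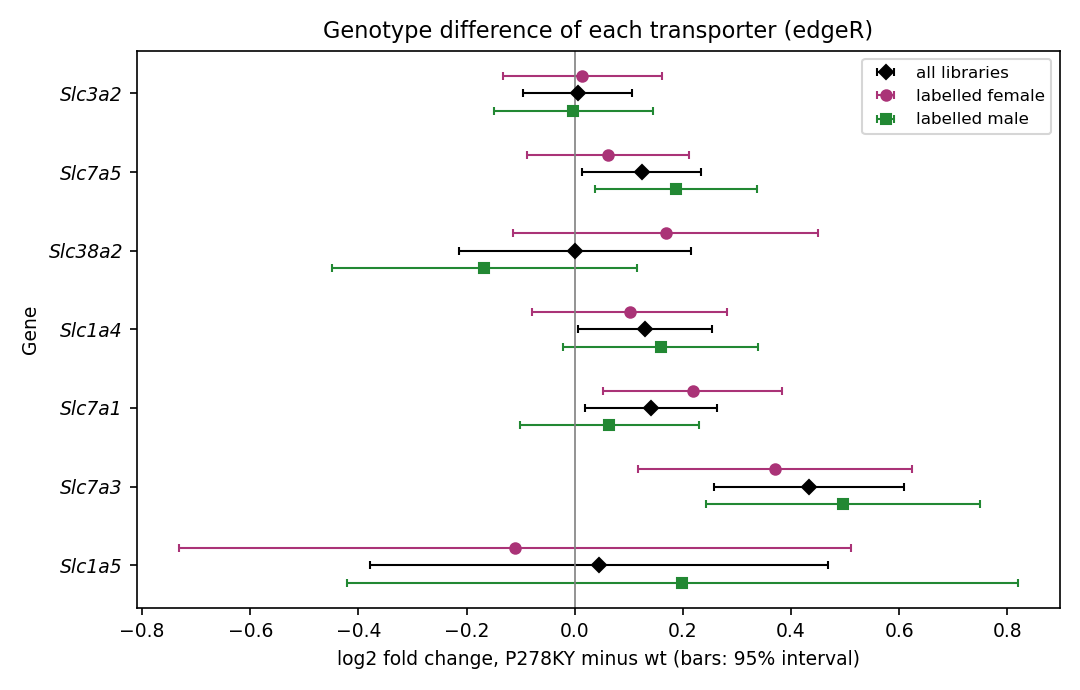
Log2 fold change of P278KY over wt from edgeR for each transporter, with 95% intervals: black diamonds use all 12 libraries, purple circles the libraries labelled female and green squares those labelled male, and genes run from the highest to the lowest wt level. The interval over all libraries lies above 0 for Slc7a5, Slc1a4, Slc7a1 and Slc7a3 and covers 0 for Slc3a2, Slc38a2 and Slc1a5, before any adjustment for the number of genes tested.

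All 7 fitted values were above 0, with a median log2 fold change of 0.12, where 46.9% of the 17995 genes tested were above 0 and their median was -0.01. The sign is a weak description for 3 of the 7: the values of Slc3a2, Slc38a2 and Slc1a5 were 0.04 or lower. On log2(TPM + 1) they were -0.04, -0.04 and -0.15, where the median of all genes was -0.04 as well, so relative to that median Slc3a2 and Slc38a2 stayed near 0. The edgeR test had an unadjusted p under 0.05 with a higher level for 4 of 7 (Slc7a1, Slc7a3, Slc7a5 and Slc1a4), against 2.4% of all genes (4.09% in either direction). That count was 1, Slc7a3, with the skeletal muscle term and 1 on log2(TPM + 1), and it was between 2 and 4 when 1 library was left out. It was 2 without female wt 1, female P278KY 4, female P278KY 7, male wt 6, male wt 9, male P278KY 5 or male P278KY 13. Within libraries labelled female no member was called by edgeR (0% of all genes), and Slc7a1 and Slc7a3 had an unadjusted p under 0.05, as did 10.7% of all genes. Within libraries labelled male no member was called either (0%), and Slc7a3 and Slc7a5 had an unadjusted p under 0.05, as did 4.91% of all genes. For the genotype by sex interaction there was no call among the members (0%), and 0 of 7 had an unadjusted p under 0.05 where 10.9% of all genes did. DESeq2 called 0 of 7 in each of these 3 comparisons, where it called 1.61%, 0.189% and 1.55% of all genes.

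Of 45 other amino acid transporter genes 37 were tested: 12 had a higher and 25 a lower fitted level in P278KY, with a median of -0.03. None was called by edgeR or DESeq2. By edgeR 2 had an unadjusted p under 0.05, both lower, against 4.09% of all genes in either direction. One was Slc38a11, an orphan relative of Slc38a2. It stood at 2.87 to 3.76 CPM in wt and at 1.92 to 2.82 CPM in P278KY, so all P278KY libraries were below all wt libraries, as for 0.122% of genes tested. Its log2 fold change was -0.46 ± 0.11 (edgeR adjusted p = 0.858). The other was Slc6a19, a neutral amino acid carrier of gut and kidney, at 0.831 ± 0.435 CPM in wt and 0.421 ± 0.106 CPM in P278KY. Slc36a2, a carrier of small amino acids, had a log2 fold change of -0.58 ± 0.33, and Slc7a2, another cationic carrier, one of 0.14 ± 0.08 (edgeR adjusted p = 1.00 for each).

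The list of ATF4 and its known targets, which does not hold the 7 transporters, had 34 of 35 genes tested, and 32 were higher in P278KY with a median of 0.15. Fgf21 was the only gene of the list that edgeR called (adjusted p = 0.00137), where edgeR called 0.00556% of all genes. DESeq2 called 8 of the list, and 0.183% of all genes. Without the library labelled female wt 14, the 1 wt library with any Fgf21 read, edgeR called Atf4 and not Fgf21. By edgeR 13 had an unadjusted p under 0.05, all higher, against 2.4% of all genes. In 7 every P278KY library was above every wt library, against 0.1% of all genes. Atf4 itself stood at 72.8 ± 6.24 CPM in wt and 93.3 ± 3.95 CPM in P278KY (log2 fold change 0.36 ± 0.06, edgeR adjusted p = 0.123). Cars, the cysteinyl-tRNA synthetase gene, stood at 41.8 ± 2.53 and 53.9 ± 2.99 CPM (0.37 ± 0.05, edgeR adjusted p = 0.107), and Aldh18a1, an enzyme of proline synthesis, at 32.3 ± 1.78 and 39.7 ± 1.55 CPM (0.30 ± 0.05, edgeR adjusted p = 0.123). The value of Slc7a3, 0.43, was as large as these, while those of Slc7a1, Slc7a5 and Slc1a4 were lower than the list median, in which Fgf21 counts only as a value above it. This list was drawn up with results of these data known, so its direction is no independent evidence.

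Genes of amino acid sensing through mTORC1 and GCN2, including genes that encode parts of both, were spread around 0. Of 25 tested, 13 were higher and 12 lower, with a median of 0.00, and none was called by edgeR or DESeq2. Lars, the leucyl-tRNA synthetase gene, stood at 52.2 ± 1.11 CPM in wt and 56.0 ± 1.67 CPM in P278KY (log2 fold change 0.10 ± 0.04). It was the only one of these genes with an edgeR unadjusted p under 0.05 (adjusted p = 1.00), where 4.09% of all genes had one. Eif2ak4, which encodes GCN2, had a log2 fold change of -0.07 ± 0.04, Nprl3 one of -0.10 ± 0.05 and Lamtor3 one of -0.10 ± 0.06 (edgeR adjusted p = 1.00 for each).

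**Figure D4:**
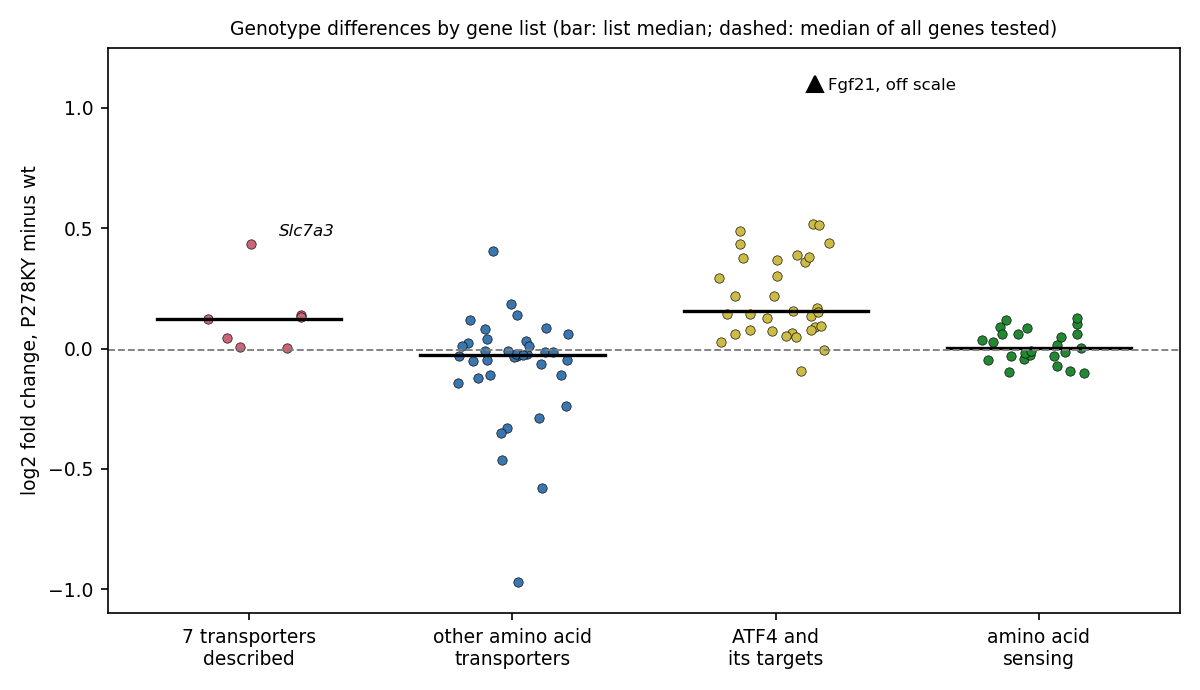
Log2 fold change of P278KY over wt (edgeR, all libraries) for each tested gene of 4 lists: 7 transporters, 37 other amino acid transporters, 34 genes of the ATF4 list and 25 amino acid sensing genes. Bars are list medians (0.12, -0.03, 0.15 and 0.00), the dashed line is the median of all genes tested, horizontal position within a list has no meaning, and the triangle stands for Fgf21, whose value is off scale and depends on the prior count because nearly all wt libraries are at 0.

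How the transporters varied together was described over the 12 libraries in log2 CPM. These values share library, depth and genotype, so no test is given. Matches were sought among 15452 genes, with predicted genes (Gm and Rik names) passed over, so such a gene may lie closer. Among the rest, Slc7a5 and Slc1a4 were each other's closest match, with a Pearson correlation of 0.89 and a Spearman correlation of 0.95. Within genotypes the Pearson value was 0.77 in wt and 0.95 in P278KY, and after removal of the genotype means it was 0.83. Slc7a5 was thus closer to Slc1a4, which carries other amino acids, than to its partner Slc3a2, with which the corresponding value was 0.30. A second set that moved together after removal of genotype means was Slc7a1 with Slc38a2 (0.86) and with Slc3a2 (0.77). After the same removal Slc7a3 was negatively correlated with Slc7a1 (-0.62), Slc38a2 (-0.60) and Slc1a5 (-0.61). Without it, the Pearson values over the 12 libraries were 0.32, -0.29 and -0.21.

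With predicted genes again passed over, the 5 genes closest to Slc7a3 were Cars (Pearson 0.93, Spearman 0.90), Rnf170 (0.91, 0.93), Insr (0.87, 0.90), Aars (0.87, 0.88) and Znrf2 (0.86, 0.87). Cars and Aars encode the cysteinyl- and alanyl-tRNA synthetases, and Insr the insulin receptor. The positions of these 5 genes relative to Gars were not examined, and a part of linkage in their levels was not tested. For Cars the Pearson value was 0.80 within wt and 0.45 within P278KY, and 0.90 without the 2 libraries farthest from the median of Slc7a3. The closest gene to Slc7a1 was Hilpda, a lipid droplet gene (Pearson 0.91, Spearman 0.92). It was Inpp5d, a phosphatase gene of blood and microglial cells, for Slc3a2 (0.90, 0.90). It was Fam111a for Slc38a2 (0.98, 0.95) and Aqp1, a water channel gene, for Slc1a5 (0.97, 0.87).

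**Figure D5:**
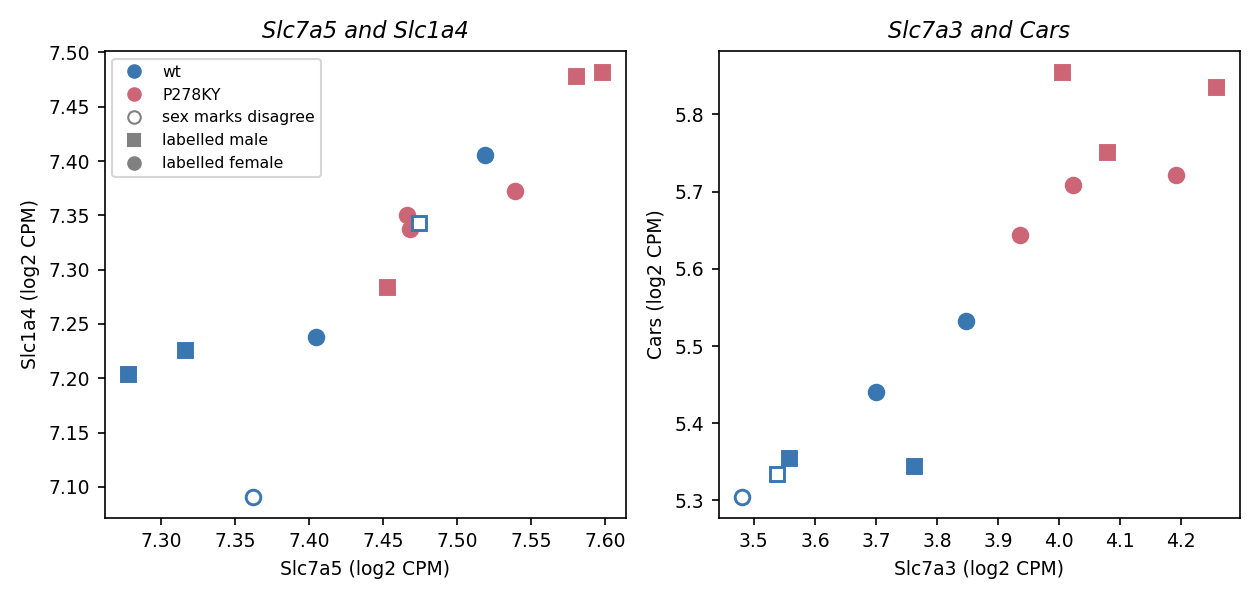
Log2 CPM of Slc1a4 against Slc7a5 (left) and of Cars against Slc7a3 (right) in the 12 libraries, wt in blue and P278KY in red, circles labelled female, squares labelled male, open symbols the libraries whose sex marks disagree. On the left the genotypes overlap along the line of points; on the right all P278KY libraries lie above and to the right of all wt libraries.

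None of the 7 genes shares a chromosome with Gars (6:55038007-55079500): Slc7a1 lies on chromosome 5 (148327410-148399904, minus strand), Slc3a2 on 19 (8706882-8723369, minus strand), Slc1a4 on 11 (20302180-20332713, minus strand) and Slc1a5 on 7 (16781340-16798274, plus strand). Since Gars loads glycine onto its tRNA, glycine codons (GGN) were counted in the GENCODE M21 coding sequence of each gene. They made up 8.83% of the codons of Slc1a4 (47 of 532), 8.47% in Slc1a5, 8.36% in Slc7a1, 7.93% in Slc7a3, 7.79% in Slc3a2, 7.62% in Slc7a5 and 6.35% in Slc38a2 (32 of 504). All 7 were above the median of 6.03% over 21778 genes, and ranged from the 55.7th to the 86.9th percentile. Slc7a3, with the largest RNA difference, was in the middle of this order.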

How the data were processed

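Poly(A) RNA from whole spinal cord was made into libraries with KAPA stranded mRNA kits and sequenced paired-end, per the labels' protocols. The submitters' processing notes name Bowtie2 2.2.0 and RSEM 1.2.12; the build, the annotation and whether counting used strand are not given in these sources. Each deposited file holds 1 library and, per the file headers, an expected count (an estimated number of fragments per gene) and a TPM value, in which the authors corrected for transcript length and library total, for 38924 genes. The deposited FPKM values were not used.

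Expected counts were rounded, filtered with filterByExpr over the 4 groups (17995 genes kept) and scaled with TMM factors. The test was edgeR 4.0.16 quasi-likelihood (robust) in R 4.3.3, genotype with labelled sex as a term, Benjamini-Hochberg over all 17995 genes, threshold 0.05. A group-means fit gave effects within sexes and the interaction. The biological coefficient of variation was 23.9%. SE is the log2 fold change over the square root of F. Log2 CPM used a prior count of 2. TPM ratios were tested by an exact two-sided permutation test over samples (924 arrangements, smallest possible p 0.00216). Alternatives were DESeq2 1.42.0, limma 3.58.1 (voom, and trend on log2(TPM + 1)), other scalings and filters, a muscle term, and omitted libraries. Scripts were tested on simulated counts. No 2 libraries held identical values.

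The members, the gene lists and the tests were chosen with earlier results of these data known. Genes named beside the members were the 5 other transporters and the 4 genes of each other list with the smallest genotype p, the genes most like each member in log2 CPM (of those with a mean of at least 1 CPM), and Gars. Predicted genes (Gm and Rik names) were passed over in the search for like genes. Chac1, the other genes with a promoter match, Ddit3, Mthfd2, the other light chains and Gm20388 were named after their values were seen. Of the list symbols, Gcn1, Castor1, Castor2, Bmt2 and, among the motor neuron genes, Slc18a3 were not found as written.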

Additional observations from a re-analysis of the deposited data

Results flagged for a closer look

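In Slc1a5, female P278KY 4 stood far below the other 5 P278KY libraries. Its level was 6.20 CPM where the nearest of the others was at 9.68 CPM, and 4.76 TPM where the nearest was at 7.38 TPM. The gap to the nearest library was 0.641 of the group's range in CPM and 0.628 in TPM. The same gene and library account for both, and 34 sets of 6 values were examined, of which chance alone flags about 1 in 20. The wt libraries female wt 1 and male wt 6 stood at 6.31 and 6.90 CPM, just above the value of female P278KY 4.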

How the results depend on the processing

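No paired analysis was possible because the labels do not say which mice were littermates. Members called by genotype went from 0 to 1 with DESeq2 and stayed at 0 under the other alternatives run. The 4 members with an unadjusted p under 0.05 became 1 with the limma fit on log2(TPM + 1), 1 with the muscle term and 2 to 4 when 1 library was left out. With all libraries, the log2 ratio of Slc7a3 to Slc7a1 had an exact permutation p of 0.0238. After adjustment over the 3 ratios it did not pass (exact permutation, adjusted p = 0.0714). Without both sex-discordant libraries the difference was 0.26 (unadjusted exact permutation p = 0.100). For Slc7a5 to Slc3a2 the difference was 0.12 on expected counts (unadjusted exact permutation p = 0.0498). It ranged from 0.095 to 0.15 with 1 library left out. Slc3a2 turned to -0.0079 with library totals, -0.037 on TPM and -0.014 to 0.034 with 1 library left out. The median of all genes was -0.02 with library totals and -0.04 on TPM. With library totals and on TPM, neither Slc3a2 nor Slc38a2 was below that median. Slc38a2 turned to -0.013 with library totals, -0.0011 with no filter, -0.038 on TPM, -0.014 with the muscle term, -0.00046 with no sex term, and -0.057 to 0.041 with 1 library left out. Slc1a5 turned to -0.15 on TPM, -0.10 with the muscle term, and -0.045 to 0.22 with 1 library left out. The causes were not tested. The counts of members by unadjusted p, the counts over the lists and the separation of Slc7a3 were added to these alternatives after seeing the data. Slc7a3 ranged from 0.37 to 0.50 on the log2 scale, with adjusted p from 0.00164 (DESeq2) to 1.00 (edgeR with the muscle term). Over all genes, 1 was called by edgeR, 33 by DESeq2, 0 with CPM above 1 in 6 libraries, 2 with no sex term, 0 without both sex-discordant libraries, 3 without female wt 2 and 2 without female P278KY 10. The ATF4 list had 1 call, 8 with DESeq2, 2 with no sex term or without female wt 2 (Cars and Fgf21), 0 with the stricter filter and 0 without both discordant libraries. Slc1a5, at 176 to 454 counts, has the widest interval of the 7 genes.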

Other observations

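Slc7a11, the cystine carrier that pairs with Slc3a2, and Slc7a2, a cationic carrier related to Slc7a1, had fitted genotype differences of opposite sign in the labelled sexes. In libraries labelled female, Slc7a11 was at 34.8, 39.3 and 47.9 CPM in wt and at 58.5, 69.8 and 77.2 CPM in P278KY. In libraries labelled male it was at 50.7, 36.4 and 59.5 CPM in wt and at 26.3, 45.5 and 40.7 CPM in P278KY. The log2 fold change was 0.75 ± 0.23 in libraries labelled female and -0.38 ± 0.23 in those labelled male. The difference between them was 1.14 ± 0.32 by edgeR (adjusted p = 0.256) and was called by DESeq2 (adjusted p = 0.0237), where 1.55% of all genes were called. Slc7a2 was at 88.0 to 91.9 CPM in wt and at 107 to 125 CPM in P278KY in libraries labelled female. In those labelled male it was at 90.5 to 96.8 CPM in wt and at 81.2 to 101 CPM in P278KY. The log2 fold change of Slc7a2 was 0.34 ± 0.08 in libraries labelled female (edgeR adjusted p = 0.211, DESeq2 adjusted p = 0.0131). In libraries labelled male it was -0.07 ± 0.08, a value smaller than its SE. The interaction was 0.41 ± 0.12 (edgeR adjusted p = 0.254, DESeq2 adjusted p = 0.0587). Both genes were picked from the transporter list after their values were seen, and 1 wt library of each labelled sex is sex-discordant. Without both, the interaction was 1.11 ± 0.34 for Slc7a11 and 0.37 ± 0.14 for Slc7a2 (edgeR adjusted p = 0.264 and 0.325).

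The files give a mean transcript length for each gene, weighted by the transcripts to which reads were assigned. For Slc1a5, which has 7 transcripts in the files, it was 1990, 1862, 2208, 2140, 1900 and 2114 bases in the wt libraries and 2443, 2151, 2292, 2388, 2358 and 2193 bases in the P278KY libraries. The means were 2036 ± 140 and 2304 ± 114 bases (SD, n = 6), and 4 of 6 P278KY libraries were above every wt library. The difference of 268 bases had an exact two-sided permutation p of 0.00866, for a gene chosen after its values were seen. Of 11231 tested genes with several transcripts and a varying length, 2.94% had a change at least as large on the log2 scale, in either direction.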
